A study of Mus musculus with 9 samples.

Results

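The rRNA entries of the small RNA tables were examined in RNA-IPs of Ago2 and Sfpq and in the input. All rows of type rRNA were taken, which gave 84 entries among the 1825 small RNAs of the Ago2 table and the same 84 among the 1939 of the Sfpq table. Of these, 82 were 5S copies at separate genomic places, 1 was a 5.8S entry and 1 was the start of the mitochondrial small-subunit rRNA. Small RNA was sequenced from 9 libraries, with 3 each for RNA precipitated with an antibody to Ago2, the Argonaute protein that carries miRNAs, RNA precipitated with an antibody to Sfpq, a nuclear RNA-binding protein, and input, the RNA of the cell extract. The cells were a mouse line, given as RAW 264.7, a macrophage-like line, in the sample labels and as P19, an embryonal carcinoma line, in the series text, with a stem cell as the labelled source. The study's own text names the macrophage-like line for the sequenced RNA-IPs of Ago2 and Sfpq. The labels give the antibody clone 2D4 for Ago2 and a pair of antibodies, Ab38148 and B92, for Sfpq. No age, genotype or drug distinguished the groups, no library with a control antibody was analysed here, and every group was an unmodified cell line rather than a tissue. All 7 myeloid miRNA markers (miR-21a-5p, miR-142-3p, miR-142-5p, miR-146a-5p, miR-146b-5p, miR-155-5p and miR-223-3p) had input signal, from 103 to 265164 in the Ago2 table. The listed miR-290 to miR-295 and miR-302 members, markers of pluripotent stem cells (1 in the Ago2 table, 3 in the Sfpq table), were at 0 in the input. In the RNA-IPs these members summed to 0.931 with Ago2 and 4.31 with Sfpq, and the myeloid markers to 606330 and 493451.

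5S rRNA is a part of the large ribosomal subunit, is transcribed by RNA polymerase III from tandem gene arrays, and has left many diverged copies scattered over mammalian genomes. 5.8S rRNA is cut from the same precursor as the other rRNAs of the nucleolus and pairs with the large-subunit rRNA, while the mitochondrial small-subunit rRNA is encoded in the mitochondrial genome. In a small RNA library, reads on such entries come from short RNAs or from fragments of the mature rRNA, which the tables do not tell apart. Copies that share a stretch of sequence can also share reads, so the 82 copies are not independent measurements.

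Entries were named by their overlap with GENCODE M21 genes on GRCm38, the assembly of the mm10 coordinates in the tables. Of the 82 5S entries, 61 had exactly the coordinates of an annotated rRNA gene, 13 overlapped one and 8 matched none. They lay on 20 chromosomes and were 95 to 125 bases long (median 118). By position, 42 lay between other genes, 36 in introns and 4 overlapped an annotated exon of a protein-coding gene (Eif2ak2, Slco2a1, Sp100 and Hddc2). Only 2 lay within 100 kb of another 5S entry, namely Gm26391 (chr8:123593071-123593189) and n-R5s109 (chr8:123554060-123554178), both on the minus strand. These 2 belong to the tandem 5S array of chromosome 8, where RefSeq (GRCm38.p6) lists 51 genes of this size, 48 of them as rRNA, from 123538784 to 123623745 with a median spacing of 1698 bases. Gm26391 had the highest input of all 5S entries and served as the reference copy.

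Copies were compared over their GENCODE M21 (GRCm38) sequences, with positions counted from 1 at the 5′ end of Gm26391, which is 119 bases long. The first 90 bases of n-R5s193 (chr4:149817732-149817840) were those of Gm26391 without a difference, and Gm24573 shared an unbroken run of 42 bases with it, from position 48 to 89. In n-R5s193, GENCODE also annotates a miRNA gene, Gm47301, and 3 other copies (n-R5s64, n-R5s1 and Gm26381) hold such an annotation. Identity to Gm26391 was 63.0% at the lowest and 82.4% at the median of the 74 copies with a sequence.

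Each value is the authors' pooled signal of a group, the mean over its 3 libraries after scaling, and comes without a spread between replicates. For low values the libraries' own reads could be recovered and are given with the copies concerned, but no test was run, since an exact permutation test of 3 libraries against 3 cannot give a two-sided p under 0.1. The tables were scaled separately and share their input libraries, and the same input was a median of 1.14 times higher in the Ago2 table than in the Sfpq table. A signal of 1 stands for about 3.92 reads over the 3 libraries of the Ago2 RNA-IP, 3.43 of the Sfpq RNA-IP and 2.60 and 2.97 of the input in the Ago2 and the Sfpq table. A value of 0 allows a signal of up to 0.764 with Ago2 and 0.876 with Sfpq, the level of 3 reads over the group. These limits and the intervals given for single entries' ratios cover counting error only. The intervals are for reads summed over the 3 libraries of a group. Where libraries differ, as for Gm24573, they are not centred on the ratio of the scaled means. Ratios are log2 of RNA-IP over input, and an entry was counted as below input where its RNA-IP value, or that limit, was more than 4-fold under an input of at least 20.

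rRNA entries were far below input in both RNA-IPs. Their summed signal was 1381 with Ago2 against 52800 in the input of that table, and 3560 with Sfpq against 46482. As a share of all signal, rRNA fell from 0.723% in the input to 0.0141% with Ago2 and from 0.721% to 0.0358% with Sfpq. Mature miRNAs made up 97.9% and 96.5% of the signal of these RNA-IPs, and with miRNAs left out of the total the shares were 4.68% in the input and 0.670% with Ago2, and 4.70% and 1.03% with Sfpq. Of the 5S copies with an input of at least 20, all 38 were below input with Ago2, where 48.7% of the 842 RNAs of all types passed the same limit. With Sfpq all 36 were below input, against 36.7% of 798 RNAs. One of these copies, Gm24573, was no longer past the 4-fold limit in either table without 1 of the input libraries, which left 37 and 35. The tRNA entries, the type nearest to rRNA in this count, were below input in 174 of 182 cases with Ago2 and in 124 of 163 with Sfpq.

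The median log2 ratio of 5S copies was -7.20 with Ago2, over the 25 copies with a finite ratio, and -6.34 with Sfpq, over 30 copies. Over all RNAs the medians were -1.22 and -0.92, and over tRNA entries -4.64 and -3.12. For snoRNAs the medians were -1.11 and -0.70, for piRNA entries -3.54 and -1.88, and for mature miRNAs 0.43 and 0.36. The 5S copies thus had the lowest median of the types in both tables, and setting copies at 0 to the limit of 0 reads gave -6.75 with Ago2 and -6.34 with Sfpq. With copies at 0 kept in, 13 of 38 5S copies with an input of at least 20 had no Ago2 read, where 4.75% of all RNAs were at 0, and 6 of 36 had no Sfpq read, where 1.0% were. Among tRNA entries 22 of 182 were at 0 with Ago2 and 1 of 163 with Sfpq.

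**Figure D1:**
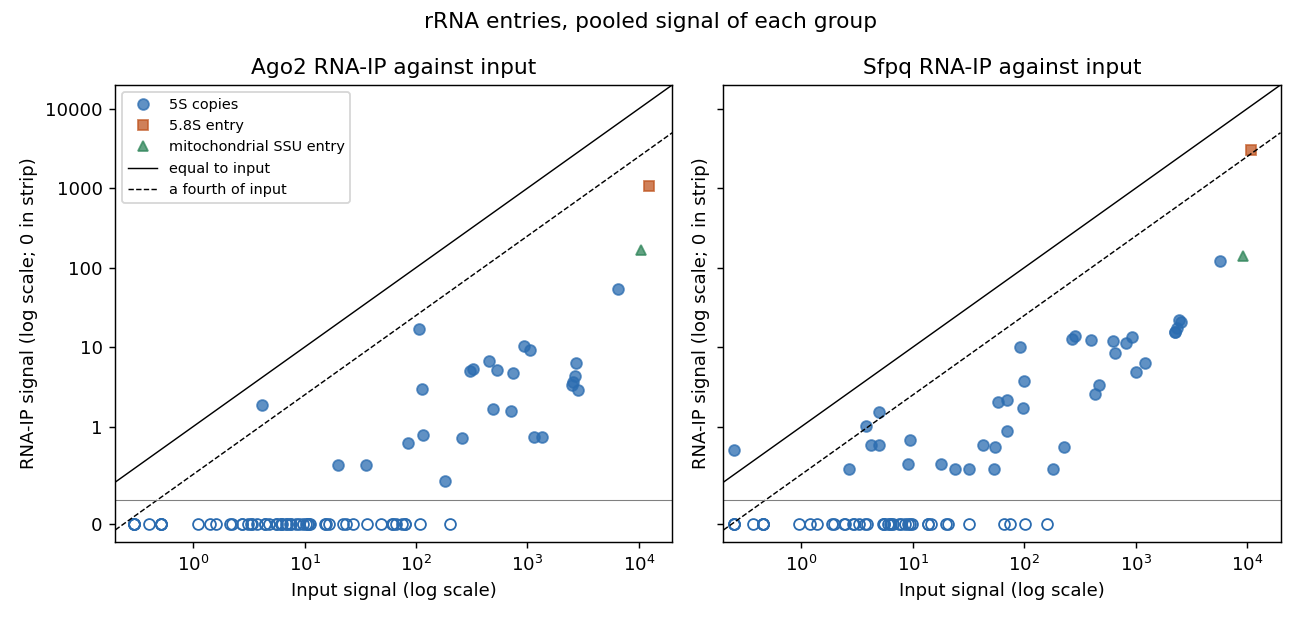
Pooled signal of each rRNA entry in the Ago2 RNA-IP (left) and the Sfpq RNA-IP (right) against input, both on log axes, with entries at 0 in the RNA-IP as open symbols in the strip at the bottom; the solid line marks equality and the dashed line a value 4-fold below input. With Ago2 56 of the 82 5S copies lie in the strip, with Sfpq 43, and the 5.8S entry is the highest point of either panel.

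The 5.8S entry (chr18:73533403-73533551) was n-R5-8s1 on the minus strand, whose annotated gene lacks 1 base of the entry at the 5′ end. It had the highest input of all rRNA entries and the highest signal of all of them in both RNA-IPs. Its signal was 1066 with Ago2 against an input of 12337, a ratio of -3.53 (95% interval for counting error -3.58 to -3.49). With Sfpq it was 3075 against 10868, a ratio of -1.82 (-1.85 to -1.79). It was therefore 11.6-fold below input with Ago2 and 3.53-fold with Sfpq, and with Sfpq it was the one rRNA entry with an input of at least 20 that did not pass the 4-fold limit. No sequence of this entry is shown.

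The mitochondrial entry covers positions 2 to 348 of the mitochondrial genome, which hold the end of the tRNA gene mt-Tf and the first part of mt-Rnr1, the small-subunit rRNA. Its signal with Ago2 was 165 against an input of 10514 (-6.00, interval -6.11 to -5.88). With Sfpq it was 141 against 9154 (-6.02, interval -6.15 to -5.89). Its ratio was thus near -6 in both tables, unlike that of the 5.8S entry. A separate tRNA entry at positions 1 to 68, which overlaps it over mt-Tf, had 2.48 against 122 with Ago2 (-5.62) and 3.07 against 108 with Sfpq (-5.13). Over the 7 mitochondrial tRNA entries with an input of at least 20, ratios ran from -7.45 to -3.24 with Ago2 (median -5.11) and from -5.13 to 0.45 with Sfpq (median -3.03), so the rRNA entry lay inside the range with Ago2 and below it with Sfpq.

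The makeup of the rRNA signal differed between input and both RNA-IPs. In the input of the Ago2 table, 5S copies held 56.7% of it, the 5.8S entry 23.4% and the mitochondrial entry 19.9%. With Ago2 these shares became 10.9%, 77.2% and 11.9%. With Sfpq they became 9.65%, 86.4% and 3.97%, against 56.9%, 23.4% and 19.7% in the input of the same table. Reads shared between copies may be counted more than once in the 5S sums.

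**Figure D2:**
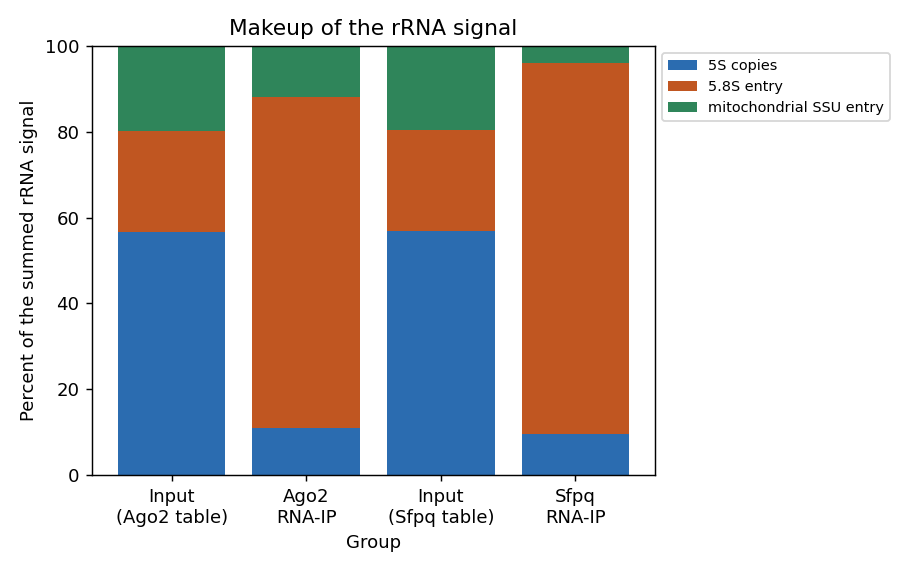
Percent of the summed rRNA signal that lay on 5S copies, the 5.8S entry and the mitochondrial small-subunit (SSU) entry, in the input of each table and in each RNA-IP, as stacked bars of pooled values. The 5.8S entry makes up 23.4% of the signal in either input, 77.2% with Ago2 and 86.4% with Sfpq.

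Input signal was spread unevenly over the 5S copies. It ran from 0.297 to 6465 in the Ago2 table with a median of 13.3, and the 10 highest copies held 81.3% of it. Copies of at least 90% identity to Gm26391 (15) had a median input of 324, those between 80 and 90% (30) of 10.01 and those under 80% (29) of 6.87. The ranges overlapped widely: n-R5s205 had 79.8% identity and an input of 2553, while n-R5s204, of 90.8% identity, had 10.9. Over the 74 copies, which share reads and libraries, Spearman's rho between identity and input was 0.48.

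**Figure D3:**
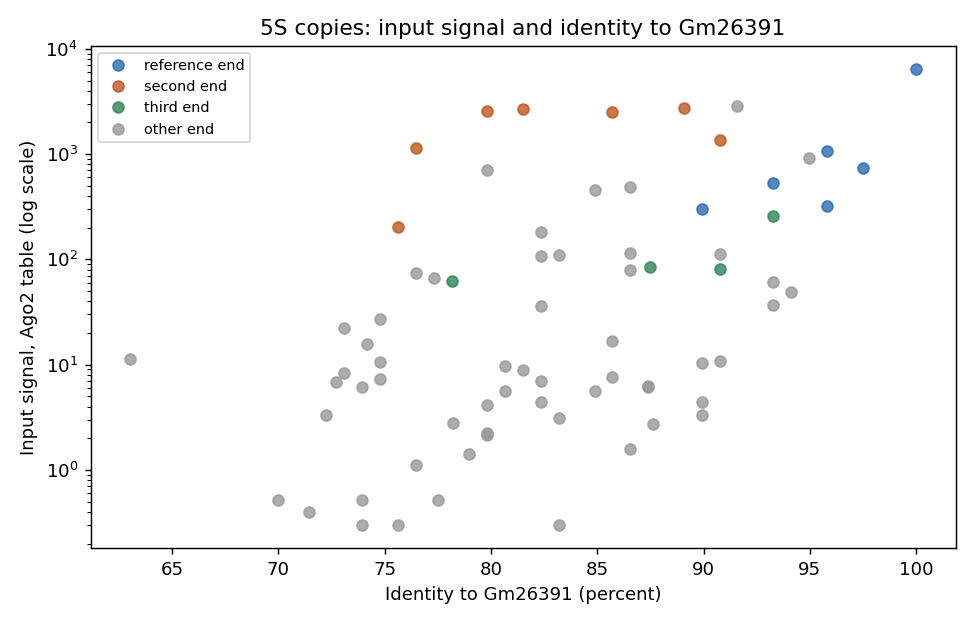
Input signal of the Ago2 table on a log axis against identity to Gm26391 in percent, for the 74 5S copies with a sequence, coloured by which of the shared ends their last 20 bases have. The 7 copies with the second end reach from 76% to 91% identity, and 6 of them have inputs of 1152 or more.

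Gm26391, in the array, was highest among the 5S copies in every group. It had a signal of 54.3 with Ago2 against an input of 6465 (-6.90, interval -7.10 to -6.70) and of 122 with Sfpq against 5700 (-5.55, interval -5.69 to -5.41). Its neighbour in the array, n-R5s109, had 4.72 against 737 with Ago2 (-7.29) and 8.46 against 651 with Sfpq (-6.27). n-R5s194 on chromosome 3, which shares its last 72 bases with Gm26391, had 9.14 against 1064 with Ago2 (-6.86) and 13.4 against 935 with Sfpq (-6.13). Both array copies were over 100-fold below input with Ago2, at 119-fold and 156-fold, and 46.8-fold and 76.9-fold with Sfpq.

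The next 5 copies by input lay outside the array, with inputs of 2533 to 2877 and Ago2 signals of 2.85 to 6.39. n-R5s210 (chr1:37005439-37005557) had 2.85 against 2877 with Ago2 (-9.98, interval -10.83 to -9.07) and 20.8 against 2548 with Sfpq (-6.94). n-R5s197 (chr3:88906510-88906628), in an intron of Gon4l and Msto1, had 6.39 against 2748 with Ago2 (-8.75) and 21.996 against 2433 with Sfpq (-6.79). n-R5s182 on chromosome 4 had 4.34 against 2671 (-9.27) and 17.3 against 2366 (-7.10). Each of these had a lower Ago2 ratio than any copy with the 3′ end of Gm26391.

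n-R5s205 (chr2:120640711-120640819, an intron of Stard9) and n-R5s161 (chr6:30379101-30379214, an intron of Zc3hc1) had nearly the values of n-R5s182. n-R5s205 had 3.68 against 2553 with Ago2 (-9.44) and n-R5s161 had 3.36 against 2533 (-9.56). In the Sfpq RNA-IP both had 15.7, at ratios of -7.17 and -7.16. The Ago2 reads of n-R5s182, n-R5s205 and n-R5s161, by library with the smallest worth of 1 read first, were 3, 3 and 9, then 3, 3 and 7, then 3, 3 and 6, so that the copies differed by 1 to 3 reads in 1 library. All of them end in the same 20 bases.

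The lowest Ago2 ratios belonged to n-R5s5 (chrX:18323444-18323562) and Gm25164 on chromosome 10. n-R5s5 had 0.737 with Ago2 against an input of 1367 (-10.86, interval -13.08 to -9.26) and 6.40 with Sfpq against 1208 (-7.56, interval -8.23 to -6.95). Gm25164 had the same 0.737 with Ago2 against 1152 (-10.61, interval -12.84 to -9.01) and 4.89 with Sfpq against 1019 (-7.70). Each Ago2 value was 3 reads, 2 in 1 library and 1 in another, and the copies share their last 22 bases. Their Sfpq reads were 22 and 17, found in all 3 libraries.

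The last 20 bases set 2 groups of copies apart in the Ago2 RNA-IP. This grouping was chosen after the values were seen and is given as a description. Copies with the same end can share reads, so close ratios within a group are not independent and its copies are not replicates. In 6 copies (Gm26391, n-R5s194, n-R5s109, n-R5s195, n-R5s151 and n-R5s93) these bases were those of Gm26391, and their Ago2 ratios ran from -7.29 to -5.94 with a median of -6.78. Another 7 copies (n-R5s197, n-R5s182, n-R5s205, n-R5s161, n-R5s5, Gm25164 and n-R5s15) shared a second end, which differs from that of Gm26391 by 1 base, and the ratios of the 6 above 0 ran from -10.86 to -8.75 with a median of -9.50, while n-R5s15 was at 0. The groups did not overlap with Ago2. With Sfpq they did: ratios ran from -7.15 to -4.38 (median -5.84) for the reference end and from -9.26 to -6.79 (median -7.17) for the second end. Of the reference-end copies, only n-R5s195, at -7.15 on 11 Sfpq reads, lay in the overlap. The next lowest, n-R5s109 at -6.27, was above every second-end copy. Summed over copies, the reference-end group had an Ago2 signal of 83.5 against an input of 9429, of which Gm26391 alone gave 54.3 and 6465. The second-end group summed to 19.2 against 13226, with no single copy above an input of 2748. Reads shared between copies may be counted more than once in these sums, so the inputs of the groups cannot be ranked by them.

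**Figure D4:**
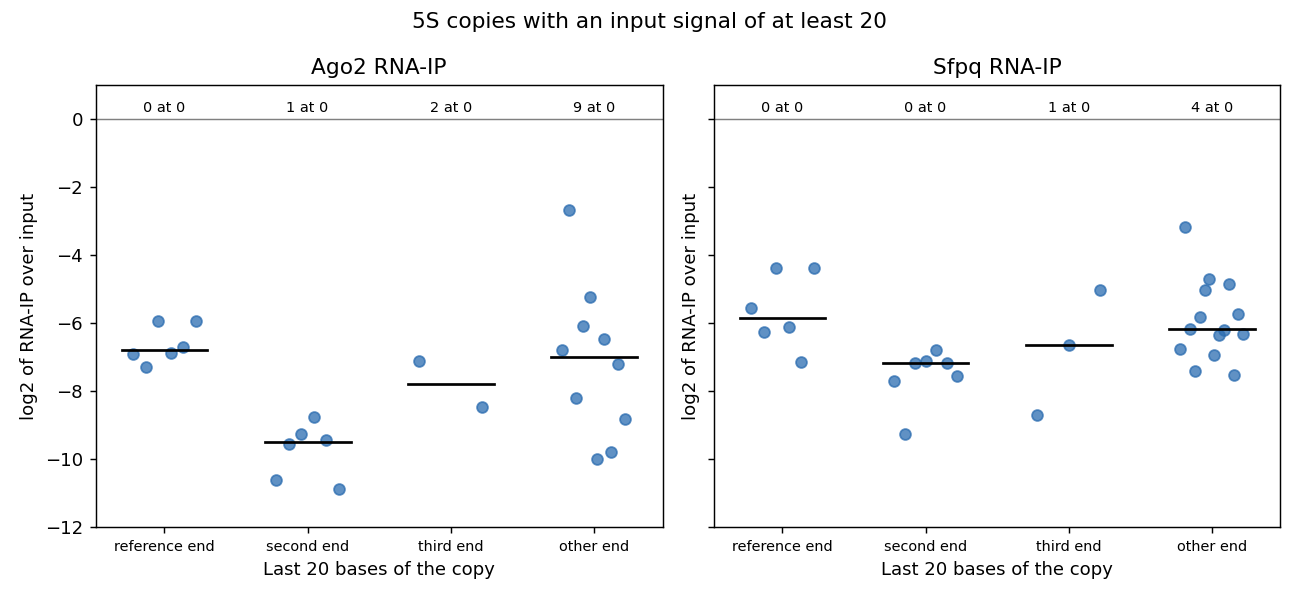
log2 of RNA-IP over input for 5S copies with an input of at least 20, by which of the shared ends the last 20 bases have; points are copies, bars are medians, and the number at 0, which have no ratio, stands above each group. With Ago2 the 6 reference-end copies lie between -7.29 and -5.94 and the 6 second-end copies above 0 between -10.86 and -8.75. With Sfpq the ranges overlap through the reference-end copy n-R5s195 only.

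The ends did not sort every copy. Of the 4 copies with the third shared end, which also differs from that of Gm26391 by 1 base, 2 were at 0 with Ago2 and the others, n-R5s25 and n-R5s169, were at -8.47 and -7.11. n-R5s210, n-R5s29 and n-R5s69 have none of the shared ends. Their Ago2 ratios of -9.98, -9.79 and -8.81 lay inside the range of the second end, that of n-R5s29 on 1 read. n-R5s28 on chromosome 17, which has none of these ends, had 10.5 against 926 with Ago2 (-6.46) and 11.1 against 815 with Sfpq (-6.19), inside the range of the reference end. n-R5s193, which lacks the reference end, had 6.68 against 452 (-6.08) and 12.2 against 398 (-5.03). Its ratios too lay inside the range of copies with that end.

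Low values could be written as whole reads of 3 libraries, whose names the pooled values do not give. For 23 5S copies with an input of at least 20 the input reads were found, and each had reads in all 3 input libraries. In the Ago2 RNA-IP, 24 copies of that input with a value above 0 could be resolved: 14 had reads in 3 libraries, 5 in 2 and 5 in 1, and 8 rested on at most 3 reads. In the Sfpq RNA-IP 11 of 23 had reads in 3 libraries, 5 in 2 and 7 in 1, and again 8 rested on at most 3 reads.

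n-R5s151 (chromosome 7, an intron of Npas1) and n-R5s93 (chromosome 8, outside the array) share their last 24 bases and had almost the same reads. n-R5s151 had 287, 280 and 245 input reads and 6, 8 and 6 Ago2 reads, and n-R5s93 had 273, 261 and 228 input reads and 6, 8 and 5 Ago2 reads. Their ratios were both -5.94 with Ago2 and both -4.38 with Sfpq, among the 5 highest in either table. Whether the same reads were counted at both places was not tested.

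Gm24573 (chr4:48762851-48762962) had the highest ratio of the 5S copies with an input of at least 20 in both tables, and its input rested on 1 library. The pooled signal was 16.7 with Ago2 against an input of 107 (-2.68, interval -3.28 to -2.50), and 10.1 with Sfpq against 91.6 (-3.18, interval -3.97 to -2.93). Its input reads were 291, 20 and 25, which scale to 259, 24.1 and 38.7 in the Ago2 table. The first of these libraries held 80.5% of its scaled input, where the next highest such share among the 23 copies was 52.8% and the median 39.8%. Without that library the ratio was -0.91 with Ago2 and -1.48 with Sfpq, both less than 4-fold below input. Its Ago2 reads were 33, 27 and 9, scaled to 20.3, 21.1 and 8.82, all below the lowest input library.

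**Figure D5:**
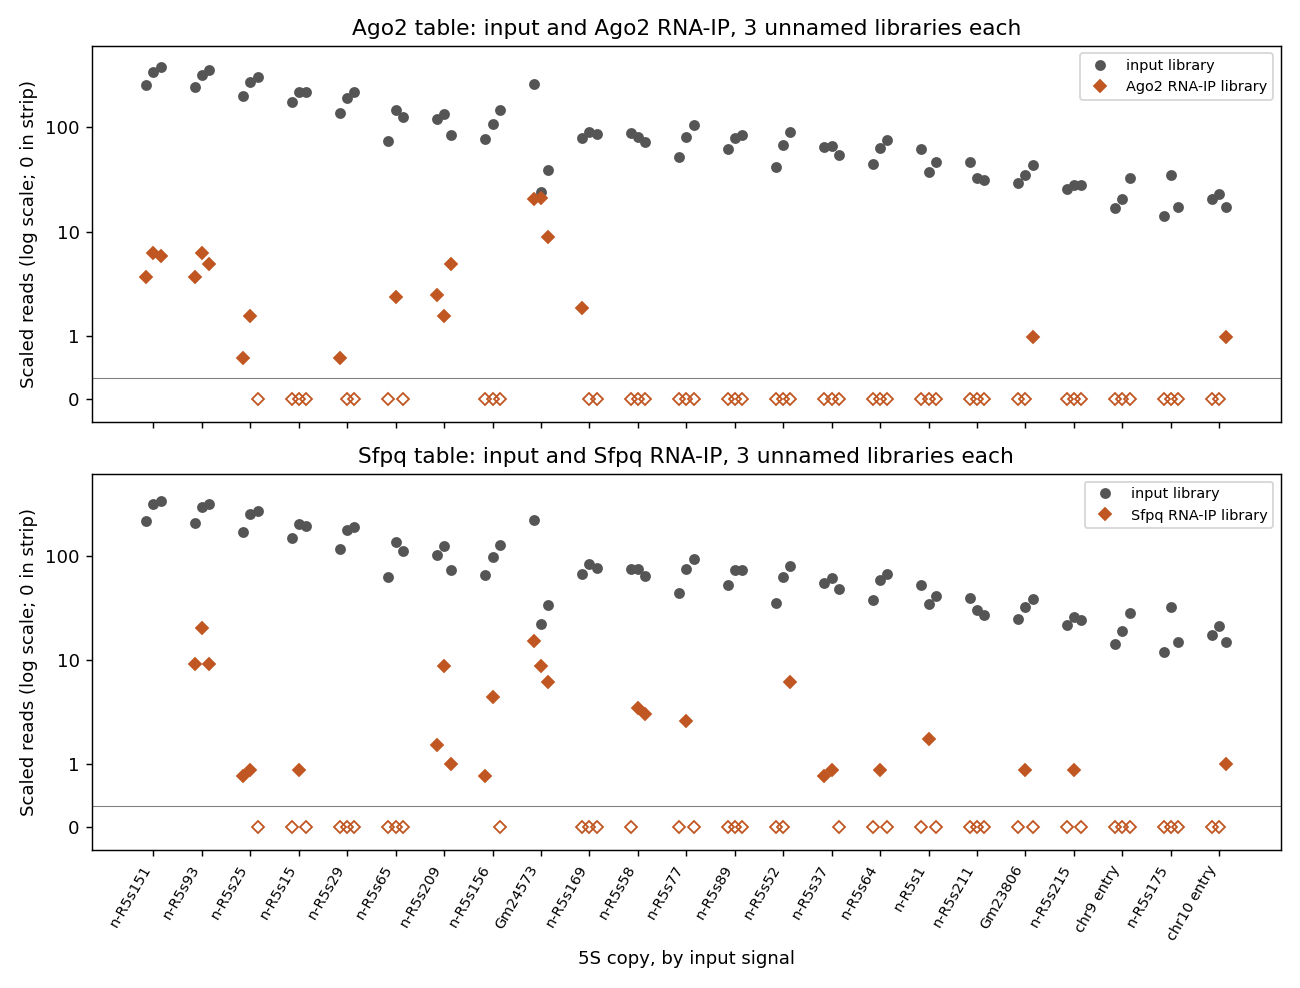
Scaled reads of each unnamed library for the 23 5S copies whose input reads could be found, with the 3 input libraries as circles and the RNA-IP libraries as diamonds, on a log axis with 0 as open diamonds in a strip; libraries run from the smallest to the largest worth of 1 read within a copy, and n-R5s151 has no Sfpq diamonds because its reads had no single solution. The input libraries of Gm24573 stand at 259, 24.1 and 38.7 in the Ago2 table, the widest spread shown.

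The other high ratios rested on few reads. n-R5s209 on chromosome 1, with an input of 134, 111 and 54 reads, had 4, 2 and 5 Ago2 reads (-5.24) and 2, 10 and 1 Sfpq reads (-4.72). n-R5s52 on chromosome 13, in an intron of Arid4b, had no Ago2 read and 6 Sfpq reads, all in 1 library (-4.85). An entry without an annotated gene at chr10:27952379-27952479 had 1 Ago2 read against 53 input reads (-5.95, interval -11.65 to -3.78). Only n-R5s209 of these had reads in all 3 libraries of both RNA-IPs.

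Several copies had clear input and no read in an RNA-IP. n-R5s15 on chromosome X had 196, 180 and 141 input reads and no Ago2 read, at least 266-fold lower, and 1 Sfpq read (-9.26, interval -14.53 to -6.74). n-R5s156 on chromosome 7 had an input of 110 and no Ago2 read, at least 143-fold lower, and 1 and 5 Sfpq reads in 2 libraries. The other copies at 0 with Ago2 at an input of at least 50 were n-R5s58, n-R5s77, n-R5s89, n-R5s52, n-R5s37 and n-R5s64, with bounds from at least 79.9-fold to at least 105-fold lower.

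With Sfpq the highest input of a copy at 0 was that of n-R5s29 on chromosome 17, at 160, which makes it at least 183-fold lower, and it had 1 Ago2 read (-9.79, interval -14.72 to -6.93). n-R5s65 was at least 116-fold lower with Sfpq and had 3 Ago2 reads, all in 1 library. n-R5s169 was at least 85.4-fold lower with 3 Ago2 reads in 1 library. n-R5s89 on chromosome 9, opposite to an exon of Slco2a1, was at 0 in both RNA-IPs with 69, 65 and 54 input reads. n-R5s25 had 3 Ago2 reads and 2 Sfpq reads against an input of 223, 223 and 195 reads, ratios of -8.47 and -8.69, and n-R5s64 on chromosome 12 had 1 Sfpq read (-7.53). With n-R5s15, Gm25164 and n-R5s5 these were the 5 lowest finite Sfpq ratios at an input of at least 20.

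Side by side, more 5S copies were above 0 with Sfpq than with Ago2. Of the 82 copies, 22 were above 0 in both, 17 with Sfpq alone, 4 with Ago2 alone and 39 in neither. Of the 17, only n-R5s156, n-R5s58, n-R5s52 and n-R5s152 had more than 3 Sfpq reads (6, 7, 6 and 5). Of the 4, only n-R5s56 had more than 3 Ago2 reads (7). A value of 0 allows 3 reads, so most copies seen in 1 RNA-IP alone are within counting error of 0. Over RNAs of all types, 520 of 1825 were at 0 with Ago2 and 466 of 1939 with Sfpq. Among the 22, 18 had the higher value with Sfpq, and the median log2 of Sfpq over Ago2 was 1.02. With a pseudocount of 1 or of 10, which keeps all 82 copies in, that median was 0. It ran from -0.73 for Gm24573 to 3.12 for n-R5s5. The 4 with the higher Ago2 value were n-R5s195, n-R5s25, Gm24573 and Gm23806, of which n-R5s195 had 5.13 with Ago2 and 3.32 with Sfpq. Some of these orders rest on little. Gm23806 had 1 read in each RNA-IP, and n-R5s25 had 3 Ago2 reads and 2 Sfpq reads. Among the 18, the entry at chr10:27952379-27952479 had 1 read in each, and n-R5s28 had 42 Ago2 reads and 37 Sfpq reads. Higher values with Sfpq were not particular to 5S copies. The median ratio to input was -1.22 with Ago2 and -0.92 with Sfpq over all RNAs, and -4.64 and -3.12 over tRNA entries. It was -3.54 and -1.88 over piRNA entries and -1.11 and -0.70 over snoRNAs. The median of mature miRNAs was slightly lower with Sfpq (0.43 and 0.36), with overlapping intervals of 0.34 to 0.52 and 0.24 to 0.45. Their summed signal had log2 ratios of 0.64 with Ago2 and 0.82 with Sfpq. The RNA-IPs were scaled in separate tables, and fewer RNA molecules of a copy in an RNA-IP and a lower recovery of that RNA-IP cannot be told apart.

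The remaining copies had little input. With Ago2, 44 copies had an input under 20 and together 0.787% of the 5S input, and 43 of them were at 0 in the RNA-IP. The exception, n-R5s56 on chromosome 13, named here after its values were seen, had 7 Ago2 reads against 10 input reads. With Sfpq, 37 of 46 such copies were at 0, and none of the other 9 had more than 5 reads. One copy was above input in either RNA-IP, n-R5s196 on chromosome 3 with Sfpq, and it had 2 reads in 1 library against 1 input read (1.03, interval -3.47 to 6.67). At this depth no difference from input was detectable for it.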

How the data were processed

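Groups were taken from the sample titles (input and the RNA-IPs of Ago2 and Sfpq, 3 libraries each). Per the study's methods, the omiRas webserver mapped and normalised the SOLiD reads, the LifeScope pipeline is also named for mapping, and cutadapt and the build mm10 are named in the submitters' processing notes; which of these made the deposited values is not given in the sources used here. The authors deposited 1 pooled signal per small RNA and group in a table for each RNA-IP, so that replicates could be compared only where reads per library were recovered from low values. The deposited log2 ratios, p-values and false discovery rates were not used. Column sums were 9809388 (Ago2 RNA-IP) and 7299085 (input) in the Ago2 table and 9957738 (Sfpq RNA-IP) and 6449023 (input) in the Sfpq table. How reads mapping to several copies were counted is not given in the sources used here.

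Ratios were recomputed with pandas and NumPy. The worth of 1 read in each of 3 unnamed libraries was found from the values under 5: 182 of 182 distinct values of the Ago2 RNA-IP were sums of whole reads, within the rounding to 6 digits. For the input, all 541 RNAs under 5 in both tables had 1 joint solution. Reads were searched for RNA-IP values under 25 and inputs under 400, and were used only where a single solution was found. The search was tested on simulated single columns at values under 10. Larger values and the joint search of the input were not simulated. Ratio intervals (95%) are exact binomial on reads summed over libraries, from SciPy, with reads rounded from the signal where they were not resolved. Copies were aligned globally with Biopython; their sequences are not reported here. Named 5S copies were the 10 highest by input, those within 100 kb of another, the 5 lowest and 5 highest ratios per table, those at 0 at an input of at least 50, and any above input; others are described in the comparison of ends. Members, lists and limits were chosen with earlier results of these data known. Other minimum inputs, folds, scalings and pseudocounts were tried.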

Additional observations from a re-analysis of the deposited data

How the results depend on the processing

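No paired analysis was possible because each table holds 1 pooled value per group, and for the same reason no replicate could be left out of the medians, the shares or the counts over all copies. The count of 5S copies below input was 38 with Ago2 and 36 with Sfpq. A minimum input of 100 left 24 and 21 copies, all of them below input, and leaving out copies at 0 left 25 with Ago2, both by testing fewer copies. The other alternatives for these counts (minimum input 10, limits of 2-fold and 16-fold, both scalings and pseudocounts, and for Sfpq leaving out copies at 0) kept them within 1.5 times. A pseudocount of 1 gave a median ratio of -6.33 with Ago2, and a pseudocount of 10 gave -4.31 with Ago2 and -3.87 with Sfpq; by construction it pulls low values towards 0. Dividing by column sums lowered every ratio by 0.43 with Ago2 and 0.63 with Sfpq, and centring on mature miRNAs by 0.43 and 0.36. The 5.8S entry was then at -3.96 under both scalings with Ago2, and at -2.45 and -2.18 with Sfpq. The mitochondrial entry was at -6.42 under both with Ago2, and at -6.64 and -6.38 with Sfpq. With mature miRNAs left out of the total, rRNA was 0.670% of the Ago2 RNA-IP against 4.68% of its input, and 1.03% of the Sfpq RNA-IP against 4.70%. The median log2 of Sfpq over Ago2 was 0 with a pseudocount of 1 or of 10, since 39 of the 82 copies were at 0 in both. Leaving out each input library of Gm24573 in turn, an alternative chosen after seeing the data, gave ratios from -3.15 to -0.91 with Ago2 and from -3.65 to -1.48 with Sfpq. Leaving out an input library for the copies whose input reads were found (23 and 21), with the others at their pooled input, gave 37 to 38 copies below input with Ago2 and 35 to 36 with Sfpq. Among the other copies with an input of at least 20, a finite ratio and reads found in the input (9 with Ago2, 14 with Sfpq), no ratio moved by more than 0.24 with Ago2 or 0.27 with Sfpq.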
